A study of Homo sapiens with 6 samples.

Results

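Divergent transcripts are long noncoding RNAs that start close to a coding gene and run away from it on the opposite strand, and their genes carry the symbol of the coding gene with the ending -DT. The members described here are the ATAC-seq peaks that lay within 1 kb of an annotated start site of a DT gene in GENCODE 44 lifted to hg19. They were 579 of the 29879 peaks deposited for 6 libraries, and they lay at 341 of 590 DT genes (57.8%, Wilson 95% interval 53.8 to 61.7%). In ATAC-seq the Tn5 transposase inserts adapters where DNA is accessible, so a peak marks open chromatin at a promoter and does not measure the RNA or its direction. The libraries came from HET-1A, a non-cancerous esophageal epithelial line grown in BEBM, and from KYSE-150 and KYSE-30, lines of esophageal squamous cell carcinoma grown in RPMI/F12 with serum. No line was treated. There were 2 libraries per line, stated to be biological replicates, and they are named here by the numbers in their labels: 1 and 2 for HET-1A, 7 and 8 for KYSE-150, and 4 and 6 for KYSE-30. Each line is a single cultured line, so a difference between lines is not a difference between tissues.

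Most mammalian promoters with many CpG dinucleotides open a stretch of DNA at which RNA polymerase can start in both directions. The coding direction is usually elongated and spliced, whereas the upstream product is short-lived or is kept as a noncoding transcript, of which the DT genes are the annotated cases. Neighbouring coding genes can also be arranged head to head and share such a promoter. The transcription factors NF-Y (at CCAAT), ETS proteins, NRF1 and the SP family (at GC boxes) are known to bind promoters of this kind.

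The arrangement that the name of the class implies was present in the annotation. A coding partner of the same symbol was found on the chromosome of 589 of the 590 genes, and 586 of these partners were on the opposite strand. The start sites of a DT gene and its partner lay within 1 kb of each other for 558 pairs (94.7%), with a median gap of 117 bp (quartiles 51 and 242 bp), and in 60 pairs the DT start lay beyond the partner start, on the partner's transcribed side. The symbol TNFRSF10A-DT was held by 2 gene IDs.

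The reference sequence (GRCh37, the sequence of hg19) of 5 promoters is shown: SLC25A28-DT and SP2-DT because 4 of 6 libraries had a peak within 1 kb of their start sites (at SLC25A28-DT 3 of these peaks overlap the stretch shown), TARS1-DT because its peak was among the 3 highest DT peaks of both large lists, and MLF1-DT and SEC61G-DT because they were open in KYSE-30 libraries 4 and 6 but in neither of the other lines. Each is 200 bases around the summit of the peak in KYSE-30 library 6, 5′ to 3′ in the direction of DT transcription. Capitals mark matches, on either strand, to the GC box GGGCGG, the ETS core CCGGAA, the NF-Y box CCAAT and the cyclic AMP response element (CRE) TGACGTCA, and neighbouring matches can run together.
SLC25A28-DT (chr10:101380244-101380443, plus strand): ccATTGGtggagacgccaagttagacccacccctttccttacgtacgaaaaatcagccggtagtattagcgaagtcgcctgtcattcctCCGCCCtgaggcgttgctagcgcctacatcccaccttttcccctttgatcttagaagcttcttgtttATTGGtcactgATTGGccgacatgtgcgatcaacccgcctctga
SP2-DT (chr17:45973267-45973466, minus strand): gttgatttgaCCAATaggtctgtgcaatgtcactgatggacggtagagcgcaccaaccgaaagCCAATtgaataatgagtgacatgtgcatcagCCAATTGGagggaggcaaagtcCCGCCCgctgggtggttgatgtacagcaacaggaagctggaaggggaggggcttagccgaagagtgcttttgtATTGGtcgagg
TARS1-DT (chr5:33440889-33441088, minus strand): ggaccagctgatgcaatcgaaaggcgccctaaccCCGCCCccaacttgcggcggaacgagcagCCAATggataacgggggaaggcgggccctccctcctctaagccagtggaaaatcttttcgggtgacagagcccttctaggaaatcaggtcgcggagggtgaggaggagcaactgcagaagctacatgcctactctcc
MLF1-DT (chr3:158288822-158289021, minus strand): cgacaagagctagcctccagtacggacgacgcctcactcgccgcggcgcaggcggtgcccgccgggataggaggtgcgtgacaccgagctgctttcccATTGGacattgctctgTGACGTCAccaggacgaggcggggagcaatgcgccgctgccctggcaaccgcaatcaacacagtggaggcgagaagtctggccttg
SEC61G-DT (chr7:54826883-54827082, plus strand): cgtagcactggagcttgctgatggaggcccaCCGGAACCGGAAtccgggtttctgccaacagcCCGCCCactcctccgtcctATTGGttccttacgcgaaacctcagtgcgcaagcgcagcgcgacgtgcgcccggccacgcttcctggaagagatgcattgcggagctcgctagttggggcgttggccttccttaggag
These stretches held between 7 and 20 CpG dinucleotides and had a GC content of 52 to 65%. A CCAAT box was found in all 5, with 5 matches at SP2-DT and 3 at SLC25A28-DT, whereas the CRE was found at MLF1-DT alone and the ETS core, with 2 matches, at SEC61G-DT alone. A start site of the DT gene fell inside the stretch at MLF1-DT and SEC61G-DT. In the other stretches the summit lay 157 to 270 bp upstream of it.

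The number of open DT promoters differed widely between libraries, and the lists themselves did too (HET-1A 168 and 15979 peaks, KYSE-150 547 and 259, KYSE-30 1255 and 11671, in the order of the library numbers). The number of reads is not given in the lists, so depth is known only as the smallest local background in each list, which was 1.49 to 3.34 tags per 200 bp and does not follow the number of peaks. Of 6 markers of squamous or simple epithelium, TP63, KRT5, KRT14 and CDH1 had no peak at a start site in any list. A peak at KRT8 was listed for HET-1A library 2 as well as KYSE-30 library 6, and at KRT18 for the former.

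A peak was present at 252 of 590 DT genes in HET-1A library 2 (42.7%, interval 38.8 to 46.7%) and at 238 in KYSE-30 library 6 (40.3%, 36.5 to 44.3%). It was present at 33 DT genes in KYSE-30 library 4 (5.59%, 4.01 to 7.75%) and at 17 in KYSE-150 library 7 (2.88%, 1.81 to 4.57%). In HET-1A library 1 and KYSE-150 library 8 there were 0 of 590, which allows a share of up to 0.508% in each by the limit of 3 counts (Wilson upper bound 0.647%). Intervals and this limit cover counting error only. Within HET-1A and within KYSE-30 the libraries stood as far apart as the lines did. The share of all 64486 annotated genes with a peak was 13.8% in HET-1A library 2 and 0.0419% in library 1. It was 11.6% in KYSE-30 library 6 and 1.57% in library 4, and 0.768% and 0.161% in KYSE-150 libraries 7 and 8. A peak in any library was found for 18.7% of all genes, against the 57.8% of DT genes. In each of the 4 libraries with any member the DT share was above this background. In KYSE-150 library 8 and HET-1A library 1, with 87 and 25 promoter peaks in all, a difference was not detectable with lists this short.

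**Figure D1:**
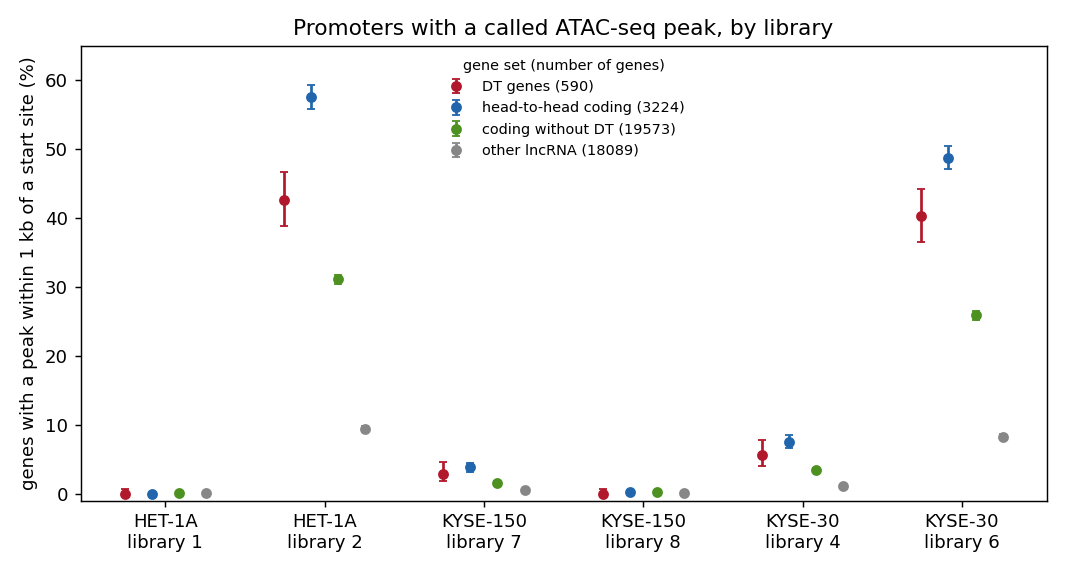
Percent of genes with a called peak within 1 kb of a start site (vertical axis) in each of the 6 libraries (horizontal axis), for 590 DT genes, 3224 head-to-head coding genes, 19573 coding genes without a DT gene and 18089 other lncRNA genes. The coding class includes the head-to-head genes. Points are shares and bars are Wilson 95% intervals. In the 4 libraries with DT peaks the DT share lies between the coding and the head-to-head share.

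To ask whether DT promoters are open more often than other promoters, they were set against 3 classes of genes. None of these genes had a start site within 1 kb of a DT start. The head-to-head coding class is part of the coding class, so these classes are nested. Among 19573 coding genes the share with a peak was 31.2% for HET-1A library 2, 25.9% for KYSE-30 library 6, 3.42% for KYSE-30 library 4 and 1.61% for KYSE-150 library 7. The DT share was 11.5, 14.5, 2.18 and 1.27 percentage points above these, or 1.37, 1.56, 1.64 and 1.79 times as high. In KYSE-150 library 8 and HET-1A library 1 the coding share was 0.245% and 0.046% and the DT share was 0. Over the 6 libraries the mean difference was 4.86 ± 6.44 points (SD, n = 6; higher in 4, lower in 2), which was not past the threshold (exact two-sided sign-flip permutation test, p = 0.125, adjusted p = 0.167 over 4 tests; the smallest p that 6 libraries allow is 0.0312). The mean fell to 2.94 points without KYSE-30 library 6, and it was 0.212 points when each list was limited to its 168 peaks of smallest p.

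Against other lncRNA genes the distance was wider. Their share in the same 4 libraries was 9.44%, 8.29%, 1.07% and 0.553%, and the mean difference from DT genes over the 6 libraries was 12 points (exact sign-flip permutation test, p = 0.125). Head-to-head coding genes, which like DT pairs have start sites on opposite strands within 1 kb, were open more often than DT genes. Of these 3224 genes 57.6%, 48.8%, 7.57% and 3.82% had a peak in those libraries, and 0.217% did in KYSE-150 library 8. The DT share was lower in these 5 libraries and equal, at 0, in HET-1A library 1, although in KYSE-150 library 8 (0 of 590 against 7 of 3224) the intervals overlapped. The mean difference was -4.42 ± 6.03 points (SD, n = 6), and the exact sign-flip permutation test gave p = 0.0625 (adjusted p = 0.167), which is the smallest p it can give with 1 difference at 0. Without KYSE-150 library 8 the test gave p = 0.125 (exact sign-flip permutation, mean -5.26 points). The mean was -2.32 points without HET-1A library 2 and -0.397 points at 168 peaks per list. A gene pair that shares a promoter enters this class as 2 genes, so its members are not independent.

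Fold enrichment, the authors' ratio of the tags at a summit to the local background of the same library, was close to that of other promoters. The median over DT peaks and over all other promoter peaks was 4.84 and 4.60 in HET-1A library 2, from 267 and 6660 peaks. It was 5.84 and 5.62 in KYSE-30 library 6 (262 and 5324 peaks), 4.38 and 4.36 in library 4 of that line (33 and 651 peaks), and 4.13 and 4.05 in KYSE-150 library 7 (17 and 296 peaks). The DT median was higher in 4 of 4 libraries, by 0.04 ± 0.03 on the log2 scale (SD, n = 4), and the exact sign-flip permutation test gave p = 0.125 (adjusted p = 0.167), the smallest that 4 libraries allow. The DT median was higher in only 2 of 4 libraries at a q-value under 0.001 and in 3 of 4 with a 3 kb window, and the mean turned to -0.0408 when each list was limited to 168 peaks. Head-to-head peaks had medians of 4.83, 5.86, 4.36 and 4.20 in the same order. The DT median was above theirs in 2 libraries and below in the other two (mean log2 ratio -0.0059, exact sign-flip permutation test, p = 0.625, adjusted p = 0.625), and the sign of this mean turned with a 500 bp window and without KYSE-150 library 7. With the best peak per gene the DT median was below in 4 of 4 libraries (mean -0.0212, exact sign-flip permutation test, p = 0.125), and with the 5′ end of each gene only it was below in 3 of 4 (mean -0.0343). Within a library the quartiles of DT peaks overlapped those of both classes over most of their length.

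**Figure D2:**
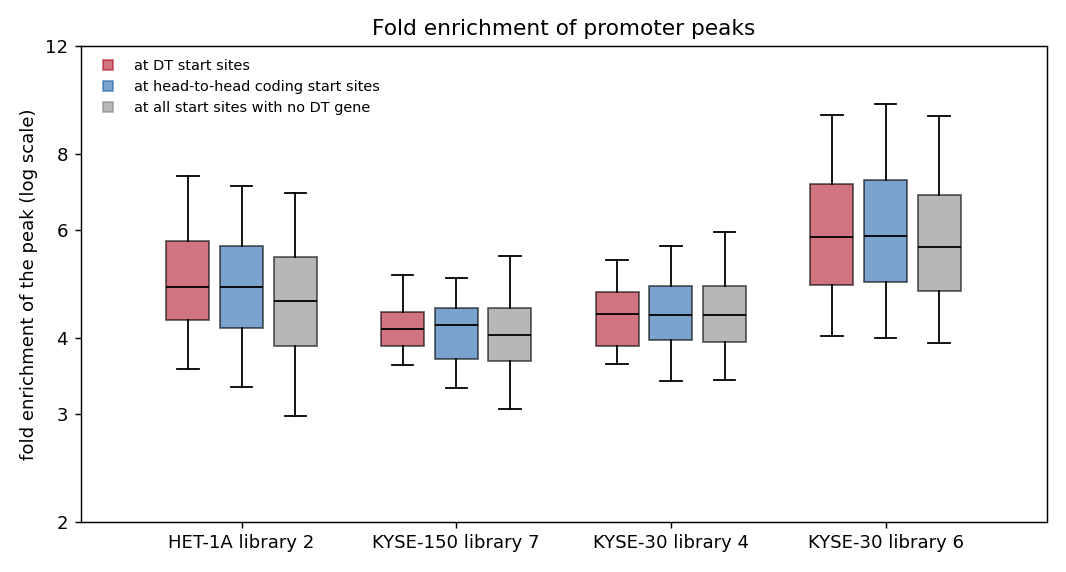
Fold enrichment (vertical axis, log scale, no unit) of promoter peaks in the 4 libraries with DT peaks, for peaks at DT start sites, at head-to-head coding start sites and at all start sites with no DT gene, a class that includes the head-to-head peaks. Boxes show quartiles with the median, and whiskers the 5th and 95th percentiles of peaks; in each library the 3 boxes overlap.

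The highest single peaks differed in range, but a maximum tends to rise with the number of peaks, and DT peaks were the fewest. In that order of libraries the highest DT peak reached 9.40, 11.7, 6.35 and 5.07, whereas the highest other promoter peak reached 39.1, 30.0, 38.6 and 37.9. The highest head-to-head peaks, at 9.67, 14.0, 6.67 and 5.75, were near the DT values. The median width of DT peaks and of other promoter peaks was 292 and 291 bp in HET-1A library 2. It was 336 and 312 bp for KYSE-30 library 6, 274 and 259 bp for KYSE-30 library 4, and 295 and 250 bp for KYSE-150 library 7, with no test of the difference.

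With start sites a median of 117 bp apart and a window of 1 kb, 1 peak is near both start sites of most pairs by construction, so the counts of pairs are a description. In HET-1A library 2 a peak lay within 1 kb of both start sites in 248 of 589 pairs, of the DT gene alone in 4 and of the partner alone in 22. In KYSE-30 library 6 these counts were 233, 5 and 18. The partner was thus open at 98.4% and 97.9% of the open DT genes, and the opening cannot be assigned to either transcript.

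Fewer DT promoters were open where the gap was above 1000 bp, a limit equal to the counting window. At smaller gaps a peak at the partner start also counts for the DT gene. The rule itself thus lowers the share in the widest class. A peak in any library was found for 114 of 195 pairs with a gap of up to 100 bp (58.5%, interval 51.4 to 65.1%), for 142 of 228 above 100 and up to 300 bp (62.3%, 55.8 to 68.3%), for 42 of 79 above 300 and up to 1000 bp (53.2%, 42.3 to 63.8%) and for 7 of 27 with a wider gap (25.9%, 13.2 to 44.7%). The last interval does not overlap those of the first and second classes, but this cannot separate the gap from the counting rule. Pairs that overlapped by up to 1000 bp were open in 34 of 56 cases (60.7%).

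The summits lay upstream of the DT start, on the side of the partner. The median position of the summit was -72 bp relative to the nearest DT start in HET-1A library 2 and -48.5 bp in KYSE-30 library 6, with negative values against the direction of DT transcription. It was -75 bp in KYSE-150 library 7 and -61 bp in KYSE-30 library 4. Of all 579 peaks 73.6% had their summit upstream, and 405 (69.9%) held a DT start site. Of the 555 peaks within 1 kb of the partner, 350 (63.1%) had the summit between both start sites, 114 (20.5%) on the DT side and 91 (16.4%) on the partner side. The summit was nearer to the partner start in 277 of the 555 (49.9%), so it was centred on neither transcript.

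**Figure D3:**
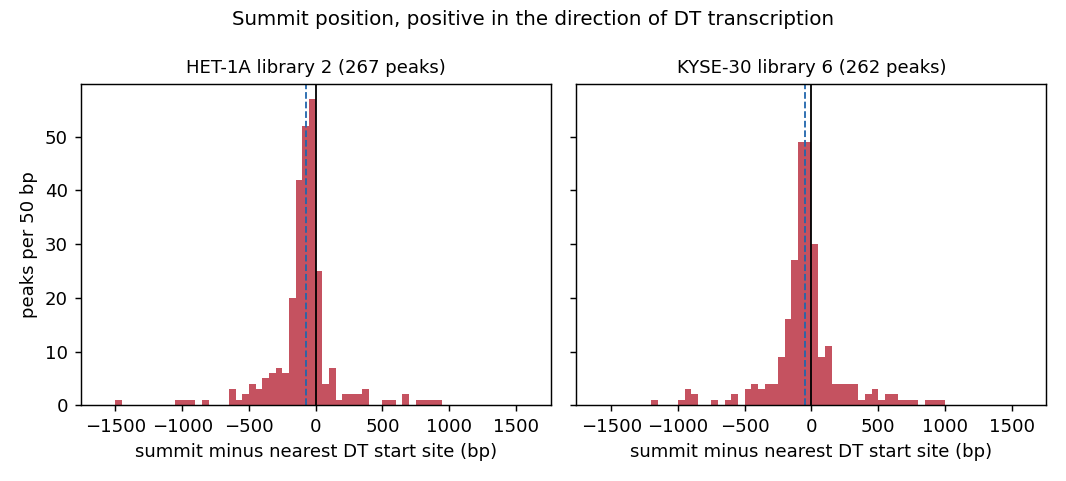
Number of DT peaks per 50 bp (vertical axis) by the distance of the summit from the nearest DT start site in bp (horizontal axis, positive in the direction of DT transcription), for the 267 peaks of HET-1A library 2 and the 262 of KYSE-30 library 6. The solid line marks the start site and the dashed line the median, at -72 and -48.5 bp.

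At 14 peaks no coding start lay within 1 kb, so that the DT start was the only one of the pair near the peak. In HET-1A library 2 these were at FGGY-DT (fold enrichment 4.41), ITGB1-DT (4.14), EFCAB13-DT (4.70), GNA15-DT (6.82), IRX2-DT (2.67) and GARS1-DT (3.80). In KYSE-30 library 6 they were at FGGY-DT (6.39), ITGB1-DT (5.43), GAPDH-DT (3.82), AGA-DT (7.24), ERBIN-DT (5.00), PPP1R3B-DT (5.76) and EOLA2-DT (2 peaks, 6.11 and 6.25). Only FGGY-DT and ITGB1-DT had such a peak in both libraries. The FGGY-DT peaks (chr1:59616624-59617024 and chr1:59616630-59617091) overlapped, whereas the ITGB1-DT peaks (chr10:33269518-33269818 and chr10:33271301-33271588) were at different start sites. FGGY encodes a carbohydrate kinase and ITGB1 the integrin beta-1 subunit.

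Just inside the limit of 1 kb were peaks at MPC1-DT, 993 bp from the start (fold enrichment 6.93, KYSE-30 library 6), and at CTTN-DT, 934 bp away (4.80, HET-1A library 2). Just outside were peaks at GLCCI1-DT at 1010 bp (7.17, KYSE-30 library 6) and LARP4B-DT at 1019 bp (6.22, HET-1A library 2). Of the members, 144 lay 1 to 500 bp and 30 lay 501 to 1000 bp from a start site.

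HET-1A library 1 and KYSE-150 library 8 held no DT peak, so a DT promoter could have a peak in at most 4 of 6 libraries. SLC25A28-DT and SP2-DT each had a peak in 4. SLC25A28-DT (ENSG00000260475, chr10:101380614-101381688, plus strand) is paired with SLC25A28, which encodes the mitochondrial iron carrier mitoferrin-2. Its fold enrichment was 5.50 in HET-1A library 2, 3.94 in KYSE-150 library 7, and 5.30 and 8.05 in KYSE-30 libraries 4 and 6, from 19 to 27 tags at the summit. SP2-DT (ENSG00000264920, chr17:45968585-45973210, minus strand) is paired with the SP-family transcription factor SP2, and its values were 6.26, 3.83, 4.22 and 6.76 in the same order. The 4 peaks at SP2-DT overlapped. At SLC25A28-DT the peak of KYSE-150 library 7 (chr10:101380850-101381223) overlapped none of the other 3, so no single site there was open in more than 3 libraries. Fold enrichment is scaled within a library, so these levels do not compare the lines. HET-1A library 1 and KYSE-150 library 8 had no peak at either.

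There were 31 DT promoters with a peak in exactly 3 libraries, 128 in 2, 179 in 1 and 249 in none. Counts by number of libraries were not taken for other genes, so these cannot be read as particular to DT promoters. TARS1-DT, paired with threonyl-tRNA synthetase, had values of 8.49 in HET-1A library 2 and of 3.62 and 10.8 in KYSE-30 libraries 4 and 6. MRPS30-DT, beside a mitochondrial ribosomal protein gene, had 7.05, 4.74 and 10.9 in the same libraries. Both stood at or above the 95th percentile of promoter peaks in HET-1A library 2 and KYSE-30 library 6, whereas TARS1-DT was at the 10.7th percentile in KYSE-30 library 4. SF1-DT, beside the splicing factor gene SF1, had 6.68, 5.35 and 5.84. OSER1-DT reached 7.59 in HET-1A library 2, with 4.24 for KYSE-150 library 7 and 5.35 for KYSE-30 library 4, but had no peak in KYSE-30 library 6, the longer list of that line. The highest values of KYSE-150 library 7 were at NUDT16-DT (5.07), SMG1-DT (5.07), the latter beside the kinase of nonsense-mediated decay, and ZNF8-DT (4.79). Each of these was also open in HET-1A library 2 (5.24, 6.69 and 5.53) and KYSE-30 library 6 (7.62, 4.72 and 4.97).

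The highest DT peak of HET-1A library 2 was at AFF4-DT (9.40), beside a scaffold subunit of the super elongation complex, and no other library had a peak there. DNAJC3-DT, beside a co-chaperone of the endoplasmic reticulum, followed with 8.82 and had 6.90 in KYSE-30 library 6.

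**Figure D4:**
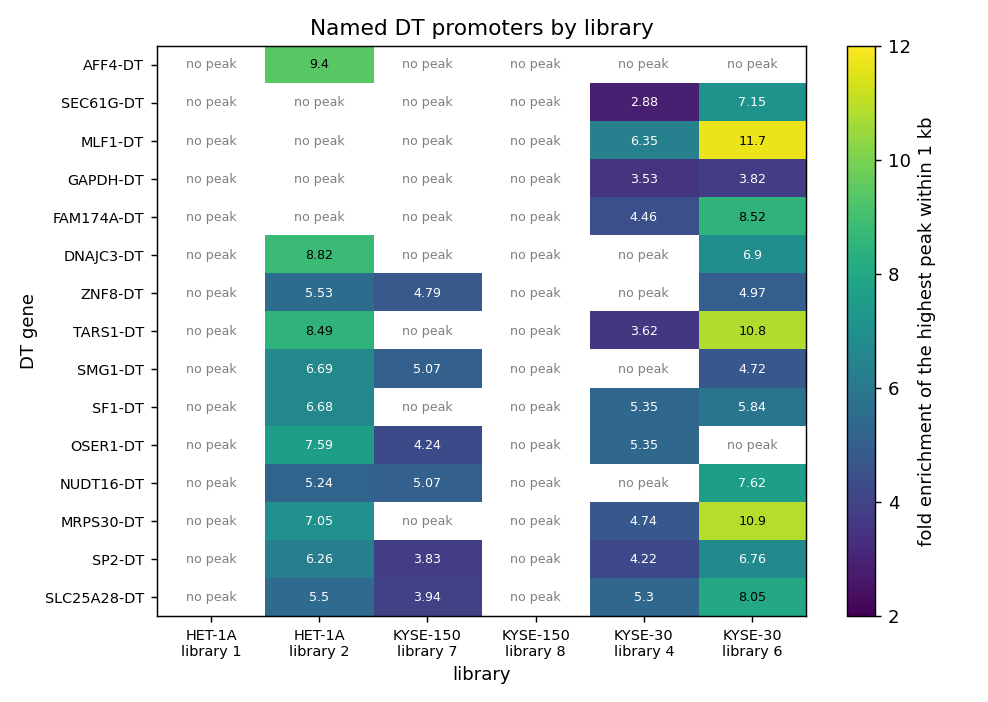
Fold enrichment (colour scale and printed number, no unit) of the highest peak within 1 kb of the start sites of 15 DT genes (rows) in the 6 libraries (columns). HET-1A library 1 and KYSE-150 library 8 have no peak in any row, and 2 genes have a peak in all 4 of the others.

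Of the 33 DT promoters open in KYSE-30 library 4, 29 were also open in KYSE-30 library 6 (87.9% of the first and 12.2% of the second), and 29 were open in HET-1A library 2. For the pair of KYSE-30 libraries the shares were 83.4% and 11% among coding genes without a DT gene and 88.9% and 13.8% among head-to-head genes, near those of DT genes. The share of KYSE-30 library 4 also open in HET-1A library 2 was 87.9% for DT genes. It was 78.6% for coding genes without a DT gene and 82% for head-to-head genes. Of the 17 open in KYSE-150 library 7, 13 were open in HET-1A library 2 (76.5%) and 12 in KYSE-30 library 6 (70.6%), near the 75.2% and 71.1% of coding genes without a DT gene. FZD4-DT (4.13), MAP3K2-DT (3.61) and MAPK6-DT (4.36) were open in KYSE-150 library 7 alone, and so not in the other library of that line. Promoters open in that library alone were not counted for other genes. The 2 largest lists shared 152 DT promoters, 60.3% of those in HET-1A library 2 and 63.9% of those in KYSE-30 library 6. Among coding genes without a DT gene the same shares were 52.3% and 63.1%, and among head-to-head genes 60.0% and 70.8%. The promoters open in both lists ranked higher within each list than those open in 1: their median percentile among promoter peaks was 68.0 against 49.9 in HET-1A library 2 and 61.2 against 48.4 in KYSE-30 library 6. For coding genes without a DT gene the values were 67.3 against 46.2 and 58.1 against 49.7, and for head-to-head genes 71.7 against 53.4 and 60.8 against 60.1. Across the 152 promoters the Spearman correlation of the fold enrichments was 0.27, a description in which promoters are not replicates and the points share their 2 libraries.

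Both libraries had a peak at 29 DT promoters in KYSE-30 and at 0 in HET-1A and KYSE-150, where 1 library of each line had no DT peak at all. Of the 29, 25 were open in HET-1A library 2 and 4 in no other line. Without HET-1A library 2 the 4 become 26, so this count rests on that library. The same counts were not taken for other genes, so neither 25 nor 4 can be read as particular to DT promoters. MLF1-DT (ENSG00000243150, chr3:158262978-158288855, minus strand) had the highest DT peak of both KYSE-30 libraries, at 6.35 (23 tags) in library 4 and 11.7 (37 tags) in library 6. Its partner MLF1 encodes myeloid leukemia factor 1, and their start sites are 97 bp apart. FAM174A-DT had 4.46 and 8.52. GAPDH-DT, beside the glycolytic enzyme gene GAPDH, had 3.53 and 3.82, but the peaks of the libraries lay apart (chr12:6643206-6643410 and chr12:6641832-6642040), so no site there was open in both.

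SEC61G-DT (ENSG00000234707, chr7:54827006-54880420, plus strand), beside the gene of the gamma subunit of the SEC61 protein channel, had 2.88 in KYSE-30 library 4 and 7.15 in library 6. Its summit held the most tags of any DT peak in both libraries, 56 and 109 against medians of 17 and 19. The local background that MACS2 used there was 7.95 and 9.67 times the smallest of the library, and the fold enrichment was at the 1.68th percentile of promoter peaks in library 4 and at the 79.4th in library 6. A local background of at least 4 times the smallest was found at 8 members in all. The others were CTTN-DT with 3 peaks, MICALL2-DT, TMEM11-DT and ST3GAL1-DT. CTTN-DT, beside the gene of the actin-binding protein cortactin, had 241 and 177 tags in HET-1A library 2, where the median was 26, at a background 14.8 and 15.8 times the smallest. Its fold enrichments were 4.80 and 3.30. Copy number was not measured in these lists, and its part in these values was not tested.

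Partners were grouped by symbol or by textbook function, and the share of open DT promoters differed between groups. Of 55 DT genes beside genes of RNA processing and translation, 42 had a peak in any library (76.4%, interval 63.7 to 85.6%), against 57.8% of all 590. In the 2 largest lists 31 and 33 were open. Examples open in HET-1A library 2 and KYSE-30 library 6 were VIRMA-DT (6.91 and 8.84), beside a subunit of the m6A methyltransferase complex, EIF2AK3-DT (5.97 and 10.3), beside the kinase PERK, and SNRPF-DT (6.45 and 7.32), beside a core spliceosomal protein gene. RPL34-DT, EIF5-DT and METTL14-DT had no peak.

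Beside genes of mitochondria and metabolism 36 of 52 were open (69.2%, 55.7 to 80.1%). In HET-1A library 2 these were 31, against 252 of all 590 DT genes, and in KYSE-30 library 6 they were 21, against 238. TIMMDC1-DT, beside an assembly factor of respiratory complex I, had 8.03 in HET-1A library 2 and 10.2 in KYSE-30 library 6, and NQO1-DT, beside a quinone reductase gene, had 6.70 and 8.33. HK2-DT and SOD1-DT had no peak. Beside genes of cell cycle and DNA repair 19 of 28 were open (67.9%, 49.3 to 82.1%). NEK2-DT, beside a mitotic kinase gene, had 6.10 in HET-1A library 2 and 4.23 and 8.67 in the KYSE-30 libraries, and CDC20-DT, beside an activator of the anaphase-promoting complex, had 5.92 in HET-1A library 2 and 4.48 in KYSE-30 library 6. CDKN2A-DT had no peak.

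Beside genes of signalling, adhesion and cytoskeleton 40 of 81 were open (49.4%, 38.8 to 60.0%). GSK3B-DT, beside the kinase GSK3 beta, had 4.83 in HET-1A library 2, with 4.69 for KYSE-150 library 7 and 8.53 for KYSE-30 library 6. No peak was found at EPCAM-DT, CD44-DT, FN1-DT or SOCS3-DT. Beside C2H2 zinc finger genes 13 of 26 were open (50%, 32.1 to 67.9%), beside immediate-early and stress genes, chaperones included, 4 of 7, and beside developmental transcription factors 2 of 10 (20%, 5.67 to 51.0%). These 2 were POU2F1-DT (4.14 in HET-1A library 2, 3.89 and 5.08 in the KYSE-30 libraries) and IRX2-DT (4.06 and 8.61 in HET-1A library 2 and KYSE-30 library 6), whereas FOXF2-DT, LHX1-DT, EN2-DT, DLX2-DT and the others had none. The interval of the RNA group lies above the share of all DT genes and that of the developmental group below it. The developmental group was set by symbol prefix alone. PBX3-DT, beside another transcription factor gene and open in 3 libraries, was therefore outside it. With 331 DT genes outside any group (55.9% open), the groups cover less than all of the set and no test was run on them.

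**Figure D5:**
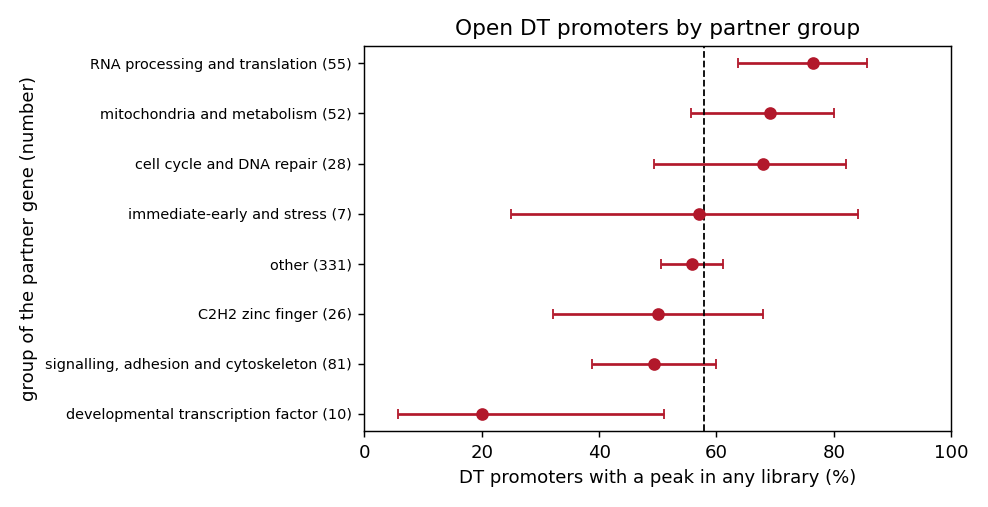
Percent of DT promoters with a peak in any library (horizontal axis) by the group of the coding partner (vertical axis, number of DT genes in brackets). Points are shares, bars Wilson 95% intervals, and the dashed line the 57.8% of all 590 DT genes.

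The sequence of DT promoters was that of CpG-rich promoters. In the 300 bases from 250 before to 50 after the 5′ end, the median GC content was 68.3% for all 590 DT genes, 63.3% for head-to-head coding genes, 60.0% for coding genes without a DT gene, 48.3% for other lncRNA genes and 49.3% for all genes. The median ratio of observed to expected CpG was 0.86, 0.82, 0.69, 0.28 and 0.32. DT genes with a peak had a lower GC content than those without, 67.3% (quartiles 61.3 and 72.7%) against 71.0% (61.0 and 75.3%), while the CpG ratio was 0.87 and 0.85.

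Motifs were searched by their letters on both strands. CCAAT was held by 123 of the 341 open DT promoters (36.1%, interval 31.2 to 41.3%) and by 51 of the 249 without a peak (20.5%, 15.9 to 25.9%), against 36.7% of all genes. In the 162 DT promoters open in 2 or more libraries it was held by 43.8%. The ETS core CCGGAA was held by 34.6% (29.8 to 39.8%) of open promoters and 22.1% (17.4 to 27.6%) of the others, against 10.5% of all genes. The NRF1 word GCATGCGC was held by 29 open promoters (8.50%, 5.99 to 11.9%) and 4 of the others (1.61%, 0.626 to 4.06%), against 1.93% of all genes. The intervals of open and other DT promoters do not overlap for these 3 motifs. Head-to-head coding genes held CCAAT in 35.8%, the ETS core in 32.2% and the NRF1 word in 6.27%. These shares were near those of open DT promoters, so the latter are not particular to DT genes. CCAAT is richer in A and T than these promoters, and GC content moved with peak status as given above. Its part in the motif shares was not tested.

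The GC box GGGCGG was held by 71.6% of open and 71.9% of other DT promoters, against 26.6% of all genes. The shares with TGACGTCA were 4.99% and 2.01%, with the YY1 word AAGATGGCG 3.23% and 2.81%, with the TATA box TATAAA 2.64% and 5.62%, and with the AP-1 core TGACTCA or TGAGTCA 2.64% and 3.21%, and their intervals overlapped. Among all genes these words were held by 1.05%, 1.04%, 17.5% and 4.70%. Head-to-head coding genes were nearer to DT genes, with 3.01%, 3.47%, 5.21% and 2.45% in the same order and the GC box in 63.6%.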

How the data were processed

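ATAC-seq peak lists of 6 libraries were analysed. Per the study's methods, the authors trimmed reads, marked duplicates with picard (2.2.1), used bowtie2 (2.3.3.1) with hg19 for mapping, removed blacklisted regions with bedtools, adjusted positions for Tn5, retained only fragments shorter than 100 bp and ran MACS2 on each library (2.1.0.20160309, q-value 0.05, extension 200 bp), without pooling. The deposited values are a score, a fold enrichment (ratio of summit to local background), −log10 p- and q-values, and the summit offset. Fold enrichment is comparable within a library only. Since the lists hold called peaks, a promoter without a peak may still be accessible.

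Start sites were all transcript 5′ ends of 64486 genes in GENCODE 44 for hg19. Peaks were members within 1 kb of a DT start. Tags and local background were recovered from fold enrichment and p-value (99.6 to 100% of peaks, tolerance 0.001 in −log10 p). Head-to-head genes had coding starts on opposite strands within 1 kb. Libraries were the units of an exact two-sided sign-flip permutation test, with Benjamini-Hochberg adjustment over 4 tests. The libraries of a line share a cell line, so the units are not fully independent. The p-values do not allow for this. No test between lines was run. An exact permutation of 2 libraries against 2 cannot give p below 0.33, and models without this limit were not fitted to the peak lists. Named promoters were those with a peak in at least 4 libraries, in both libraries of 1 line only, or among the 3 highest of a library, with SEC61G-DT and MLF1-DT; 1 promoter that met this rule is not reported here. Members, lists and groups were chosen with earlier results of these data known, and the markers, the partner counts and other examples after values were seen. The steps were tested on simulated data. Python 3.11.15, numpy 2.4.6, pandas 2.3.3, scipy 1.17.1 and matplotlib 3.10.9 were used.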

Additional observations from a re-analysis of the deposited data

How the results depend on the processing

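Results were recomputed with q-values below 0.01 and below 0.001, 168 peaks per list, windows of 500 bp and 3 kb, the summit in place of the peak, the 5′ end of each gene only, the best peak per gene, peaks of raised background left out, other comparison genes, and each library left out. At 168 peaks per list, 19 DT promoters had a peak, of which 2 were open in both KYSE-30 libraries and likewise 2 in that line alone, and the log2 ratio of fold enrichment to other promoters turned to -0.0408, and its cause was not tested. With a 3 kb window the difference from head-to-head genes was -4.43 points and passed the threshold before adjustment (exact sign-flip permutation test, p = 0.0312, lower in 6 of 6 libraries). The log2 ratio of fold enrichment to head-to-head peaks turned to 0.0024 with a 500 bp window and ranged from -0.00963 to 0.000367 with a library left out, where the positive value was without KYSE-150 library 7. The cause was not tested. The count open in KYSE-30 alone ranged from 4 to 26 with a library left out, where 26 was without HET-1A library 2, and it was 3 with a 500 bp window. With other comparison genes the difference in percent open was 10.7 points against all other genes and 12 against other lncRNA genes. In all, 85 recomputed values of the main results kept the direction of the mean and the side of the threshold, or stayed within 1.5 times the count. For fold enrichment, tested on 4 libraries at most, and with a library left out, the smallest possible p is above the threshold. Those values could not change side, so the count of 85 is not a measure of their stability. Of the values for named promoters, 98 stayed within 1.5 times the number of libraries and 14 did not.

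Libraries could not be paired between lines because the libraries of different lines share no replicate number. The length of the lists limits these results: a promoter below the calling threshold is missing from them, and HET-1A library 1 and KYSE-150 library 8 hold too few promoter peaks for a share of DT genes to be measured.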
